A study of Homo sapiens with 14 samples.

Results

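Among the sites bound by phosphorylated JUN (p-JUN) in LX-2 cells, 555 lay inside chromatin marked by H3K27me3. They were chosen by the authors' own peak calls: the 4 p-JUN peak lists were merged where peaks shared at least 1 bp, regions in at least 2 of the 4 lists were kept, and those that overlapped an H3K27me3 peak in any of the 4 H3K27me3 lists were taken. This left 555 of 52728 p-JUN regions in at least 2 lists, and of 61411 p-JUN regions in all. A further 16 regions that were called in all 14 peak lists of the study were left out. The 52157 regions in at least 2 p-JUN lists with no H3K27me3 overlap, here the other p-JUN regions, served for comparison. Because p-JUN and H3K27me3 calls chose the members, their own counts are given as a description only. Leaving out the 16 regions used the H3K4me3 and H3K27ac calls as well. The differences in these marks over all members are therefore also given with the 16 kept.

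LX-2 is an immortalised human hepatic stellate cell line, and the cells were wild type in every group. The matrix under them was soft or stiff for 2 days, and chromatin was profiled by CUT&Tag, in which an antibody brings a transposase to its target. Each matrix had 2 libraries of p-JUN, 2 of H3K4me3 and 2 of H3K27me3, and for H3K27ac 1 merged list. The titles of the stiff p-JUN libraries hold TCP, which in the study stands for tissue culture plastic, so these are called the libraries labelled stiff. The study states at least 2 biological replicates for its sequencing. The labels do not say that these libraries were separate cultures, so the spread between them may still be technical. The promoters of 10 of 14 stellate cell and myofibroblast markers carried H3K4me3 in all 4 libraries, against 0 of 8 hepatocyte markers, 1 of 5 endothelial, 1 of 6 immune and 2 of 4 cholangiocyte markers.

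JUN is a subunit of AP-1, a dimeric transcription factor that is activated by stress and growth signals through phosphorylation of JUN and binds a short palindromic motif. H3K27me3 is deposited by Polycomb repressive complex 2 and covers silent genes, among them many regulators of development. The same lysine carries acetyl groups (H3K27ac) at active promoters and enhancers, so both marks cannot sit on one histone tail. Promoters that bear H3K27me3 together with H3K4me3, the mark of promoters that are active or poised, are known as bivalent.

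The sequences at the p-JUN summits show the kinds of site that the members comprised. All are from the plus strand of GRCh37, the build of the files, and lie outside annotated untranslated regions. The first 4 are sites with the AP-1 motif, TGACTCA or TGAGTCA, which is in capitals. PDE1B, LHX6 and ALOX5 are members at promoters, and the fourth lies between genes nearest to AIPL1.
PDE1B, chr12:54944073-54944133: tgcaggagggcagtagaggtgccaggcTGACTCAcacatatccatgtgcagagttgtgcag
LHX6, chr9:124991354-124991414: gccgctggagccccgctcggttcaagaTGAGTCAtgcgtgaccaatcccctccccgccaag
ALOX5, chr10:45870278-45870338: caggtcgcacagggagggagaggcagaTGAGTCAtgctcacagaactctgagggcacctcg
near AIPL1, chr17:6278446-6278506: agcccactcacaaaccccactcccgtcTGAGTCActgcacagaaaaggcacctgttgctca

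Of the 99 members at promoters 10 had the AP-1 motif at the summit. In the 301 bp around the summit promoter members had a median of 20 CG pairs, against 6 over all members and 24 at the promoters among the other p-JUN regions. The best-ranked summits without the motif are shown, with each CG pair in capitals. That of NTNG1 holds none and lay outside the H3K27me3 peaks.
NTNG1, chr1:107681787-107681847: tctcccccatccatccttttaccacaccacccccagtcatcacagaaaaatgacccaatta
TCF21, chr6:134211038-134211098: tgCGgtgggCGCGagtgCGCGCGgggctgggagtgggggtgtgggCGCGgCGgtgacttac
PDX1, chr13:28495102-28495162: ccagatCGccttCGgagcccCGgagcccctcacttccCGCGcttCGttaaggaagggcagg

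The third kind was repeated DNA. The examples hold the satellite unit GGAAT beside a gap of the assembly on chromosome 10 and, on chromosome 9, the CENP-B box, which is bound by a centromere protein. The units are in capitals.
chr10:42597017-42597077: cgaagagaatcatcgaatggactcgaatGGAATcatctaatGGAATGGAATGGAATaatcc
chr9:69711080-69711140: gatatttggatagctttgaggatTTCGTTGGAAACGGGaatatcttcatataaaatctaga

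The members divided into sites of unique sequence and sites of repeated sequence. A region was called multi-copy where more than 50% of its 31-base words occurred more than once in GRCh37. By this measure 401 members were single-copy and 151, or 27.2%, were multi-copy, against 3.64% of the other p-JUN regions. The remaining 3 members lay where the reference holds no sequence to count. Within 1 Mb of an assembly gap lay 184 members, or 33.2%, against 10.4% of the other regions. How reads from repeats were placed by the aligner is not given in the sources used here, and its part in these calls was not tested.

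The number of H3K27me3 lists that held a member moved with this division. Of the 555 members, 228 overlapped H3K27me3 in 1 list, 102 in 2, 86 in 3 and 139 in all 4. Multi-copy sequence made up 13.6% of the members in 1 list, 17.6% of those in 2, 38.4% of those in 3 and 49.6% of those in all 4. By library, H3K27me3 overlapped 469 and 251 members on soft against 258 and 268 on stiff. The first soft library had the longest list, with 19843 peaks against 6974 to 9228 in the others, and 160 members overlapped H3K27me3 in that library only. Without it 394 members remained, and the differences over all members are given both with and without it. Those within classes of region, quartiles and gene lists were not repeated.

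**Figure D1:**
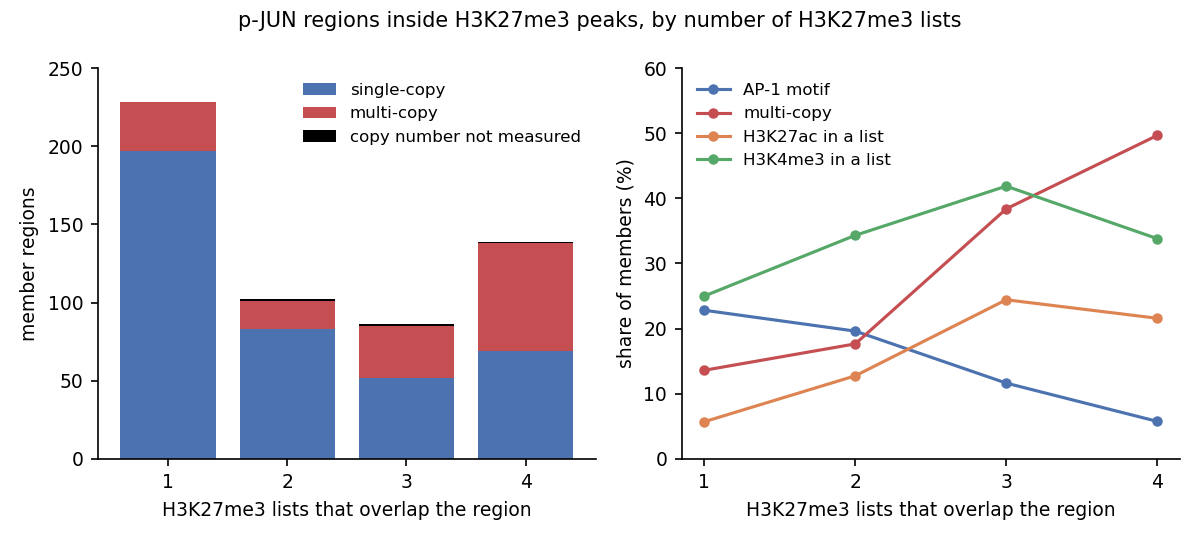
Members by the number of H3K27me3 lists that overlap them, 1 to 4 on the horizontal axes. The left plot counts member regions (blue single-copy, red multi-copy, black not measured), and the right plot gives the share of members in percent with the AP-1 motif, of multi-copy sequence, and with H3K27ac or H3K4me3 in at least 1 list; the AP-1 share falls from 22.8% to 5.76% while the multi-copy share rises from 13.6% to 49.6%.

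The H3K27me3 peaks themselves were short and low. Those with a member had a median length of 0.816 and 0.914 kb on soft and 0.899 and 0.721 kb on stiff, against 0.589 to 0.656 kb for peaks without one. Their median fold, the authors' ratio of signal to local background averaged over a broad peak, was 3.03 and 3.04 on soft against 3.21 and 3.28 on stiff, against 2.70 to 2.75 without a member. Longer peaks have more room for a p-JUN region, so the length is a description. Among members in all 4 lists the median fold of H3K27me3 was 2.77 to 2.99 at single-copy members and 3.56 to 3.68 at multi-copy members, with no overlap between the ranges of the 4 libraries.

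At the edge of the rule the calls were close. The smallest overlaps with H3K27me3 among the members were 3 bp, at a region between genes nearest to PNMA6F, and 4 bp, in an intron of SIRPB2. The nearest regions outside were at 0 bp, a region that abutted an H3K27me3 peak without sharing a base near ATP2C2, and 4 bp from one at the promoter of GRIP1. In 456 of the 555 members the summit itself lay under an H3K27me3 peak. Of the 16 regions in all 14 lists 8 were multi-copy and 15 lay within 1 Mb of an assembly gap, and the exception to the latter was the promoter of the cadherin gene CDH18.

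The AP-1 motif was rarer in the members than in the other p-JUN regions. It lay within 50 bp of the summit in 90 members (16.2%) and in 32.5% of the other regions. By library, counting each library's own summits, the share was 17.8% and 16.6% on soft against 18.0% and 18.6% on stiff, against 33.1%, 33.0%, 33.2% and 31.8% for the other regions in the same order. The difference was −15.0 percentage points ± 1.37 (SD, n = 4 libraries; exact sign-flip test, two-sided p = 0.125, the smallest that 4 libraries allow) and was below 0 in 4 of 4 libraries. At 1 kb to each side of the member summits the motif was found in 0.787% to 1.51% of windows. Without the first H3K27me3 soft library the difference was −18.2 points.

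Both sequence and place of the region moved with the motif. In single-copy distal regions, farther than 1 kb from a protein-coding start site, the motif was in 24.5% and 24.4% of members on soft against 26.3% and 27.3% on stiff, against 36.999% to 38.6% of the other regions. The difference there was −12.3 points ± 2.15 (SD, n = 4; exact sign-flip p = 0.125). In multi-copy regions it was −26.2 points ± 1.13 (SD, n = 4; exact sign-flip p = 0.125), with 5.26% to 7.30% of members against 32.0% to 33.3%. At single-copy promoters the shares overlapped, with 9.09% to 12.3% of members and 7.97% to 10.02% of the other regions (difference 1.62 points ± 1.86, n = 4, exact sign-flip p = 0.25).

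**Figure D2:**
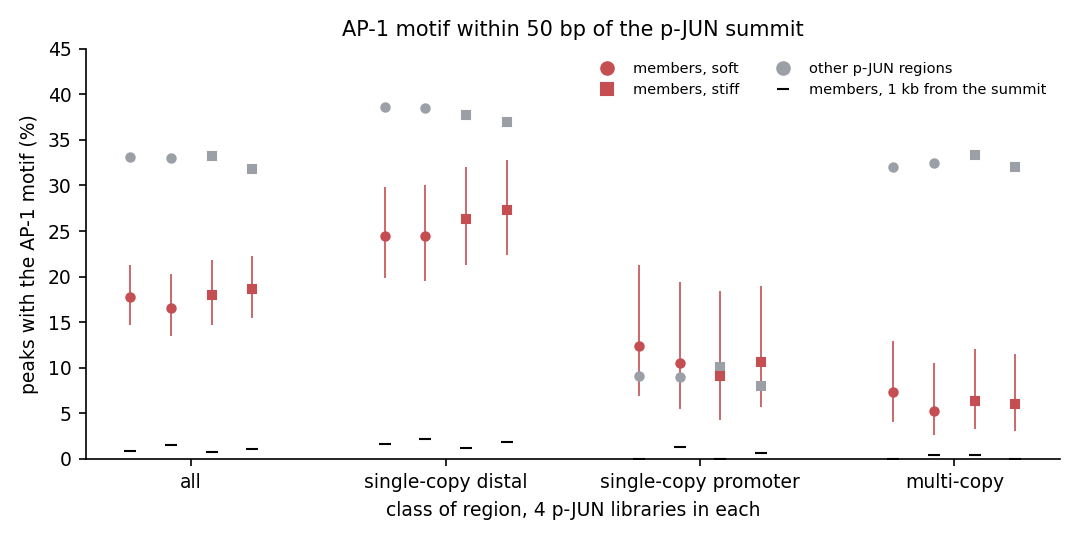
Share of p-JUN peaks in percent with the AP-1 motif within 50 bp of the summit, for each of the 4 p-JUN libraries (circles soft, squares stiff) in 4 classes of region. Red points are members with 95% Wilson intervals, grey points the other p-JUN regions and dashes the positions 1 kb from member summits; members lie below the other regions in all classes but the single-copy promoters.

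The motif share also moved with the height of the p-JUN peak. Members had lower peaks: the median deposited fold was 6.91 and 7.07 on soft against 7.06 and 7.23 on stiff, against 8.09, 8.19, 8.14 and 8.66 at the other regions. The difference of the median log2 fold was −0.23 ± 0.02 (SD, n = 4; exact sign-flip p = 0.125; lower in 4 of 4 libraries), and −0.23 without the first H3K27me3 soft library. When single-copy distal regions were divided by the quartiles of fold over all regions, the motif was in 9.48% of 116 members in the lowest quartile against 25.9% of the other regions, in 24.0% against 33.9% in the second, in 27.5% against 41.3% in the third and in 45.8% of 48 members against 47.3% in the highest. Among single-copy members the motif was in 22.8% of 197 in 1 H3K27me3 list, 22.9% of 83 in 2, 19.2% of 52 in 3 and 8.70% of 69 in all 4. The last group differed in other ways. Of it 39.1% lay within 1 Mb of an assembly gap, against 12.7%, 15.7% and 9.62% in 1, 2 and 3 lists. Promoters made up 27.5% of it, against 18.8%, 22.9% and 34.6%. Neither was set aside here.

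H3K27ac was much rarer at members than at other p-JUN regions. It overlapped 58 members in the soft list (10.5%, 95% exact interval 8.03% to 13.3%) and 64 in the stiff list (11.5%, 8.99% to 14.5%), against 30.4% and 22.8% of the other regions. At single-copy promoters the shares were 11.8% on soft and 6.45% on stiff in members against 52.6% and 39.2%. At single-copy distal regions they were 4.22% and 5.19% against 25.8% and 19.3%. With 1 merged list per matrix there is no replicate check, and the intervals cover counting error only. Without the first H3K27me3 soft library the mean difference over both lists went from −15.6 to −13.1 points. With the 16 regions in all 14 lists kept it was −13.1 points as well. Peak height was lower at members as given above, and its part in this difference was not tested.

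At multi-copy members the shares were close to those of the other regions, within the intervals of the members. They carried H3K27ac at 21.9% on soft (15.5% to 29.3%) and 27.2% on stiff (20.2% to 35.0%), against 26.9% and 22.7% of the other multi-copy regions. Of the 77 members with H3K27ac in either list, 45 were multi-copy and 31 single-copy. Among the 99 promoter members 11 had H3K27ac.

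H3K4me3 was found at more members than other regions. It overlapped 141 and 140 members on soft against 147 and 159 on stiff, or 25.4%, 25.2%, 26.5% and 28.6%, against 20.9% to 22.2% of the other regions. The difference was 4.92 points ± 1.15 (SD, n = 4; exact sign-flip p = 0.125; higher in 4 of 4 libraries). Stiff exceeded soft by 2.25 points (exact permutation test, two-sided p = 0.333, the smallest that 2 against 2 libraries allow). The excess fell to 1.17 points without the second stiff library and to 1.25 points in single-copy members (exact permutation p = 0.667), where the first libraries of both matrices overlapped 115 members each. At the other regions the share was 20.9% and 21.5% on soft against 21.4% and 22.2% on stiff, and the matrices overlapped. Without the first H3K27me3 soft library the difference between members and other regions was 5.76 points. With the regions called in every peak list of the study kept, this difference was 6.99 points. The excess of stiff over soft was then 2.19 points.

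The excess lay farther than 1 kb from protein-coding start sites. Start sites of other transcripts were not counted as promoters here. In single-copy distal regions H3K4me3 overlapped 13.3% and 11.7% of members on soft and 13.96% in each stiff library, against 7.34% to 8.55% of the other regions (difference 5.34 points ± 1.14, n = 4, exact sign-flip p = 0.125). At single-copy promoters the order turned, with 79.6% and 80.6% on soft against 77.4% and 83.9% on stiff in members against 84.5% to 86.4% (difference −4.98 points ± 2.25, n = 4, exact sign-flip p = 0.125). H3K4me3 and H3K27me3 were measured in separate libraries, so overlap of their peaks does not show that the marks sit on the same chromosome copy.

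**Figure D3:**
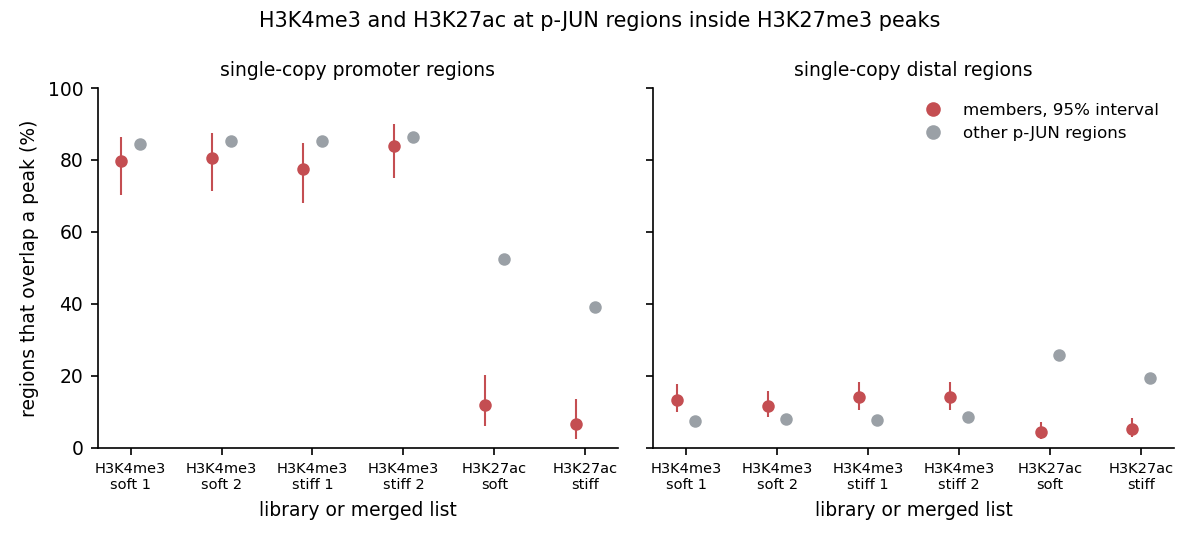
Share of regions in percent that overlap an H3K4me3 peak (4 libraries) or an H3K27ac peak (1 merged list per matrix), at single-copy promoter regions (left) and single-copy distal regions (right). Red points are members with 95% intervals (Wilson for H3K4me3, exact for H3K27ac) and grey points the other p-JUN regions. At promoters H3K4me3 is at 77.4% to 83.9% in members against 84.5% to 86.4%, and H3K27ac at 11.8% and 6.45% against 52.6% and 39.2%.

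Of the 555 members, 99 lay within 1 kb of a protein-coding start site (17.8%, against 17.4% of other regions), 38 in other exons, 172 in introns and 246 between genes. By library the promoter share differed by −0.88 points ± 0.73 (SD, n = 4; exact sign-flip p = 0.25). As for the motif, this SD is the spread between lists of largely the same regions. Among single-copy regions alone the difference turned to 4.16 points ± 0.79 (n = 4, exact sign-flip p = 0.125), since 6 of the 151 multi-copy members were promoters. Introns held 30.99% of members against 49.2% of the other regions, and the space between genes 44.3% against 27.6%. Of the 99 promoter members 84 carried H3K4me3 in at least 1 library and 69 in all 4.

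In all 4 H3K27me3 and all 4 p-JUN lists were 11 promoter members, of which 4 had the AP-1 motif, 6 had H3K4me3 in all 4 libraries and 0 had H3K27ac. For the 6 the rule in part fixed the lack of H3K27ac. A promoter of that kind with H3K27ac in both lists was left out, as CDH18 was. The 8 with the highest p-JUN fold are described first. PDE1B, which encodes a calcium-dependent phosphodiesterase (chr12:54943434-54944219), had 53 and 41 p-JUN fragments at the summit on soft against 54 and 53 on stiff. LHX6, a homeobox transcription factor of interneuron development (chr9:124990970-124992249), had 94 and 90 fragments on soft against 104 and 125 on stiff. Both have the AP-1 motif printed above, both lacked H3K27ac, and each had H3K4me3 in 1 library of 4. On fragments both stiff libraries lay above both soft ones at LHX6, as at 20.4% of the 40433 regions in all 4 p-JUN lists, and the matrices overlapped at PDE1B. On the deposited fold LHX6 overlapped, with 8.10 and 8.64 on soft against 8.10 and 10.1 on stiff. PDE1B had folds of 9.75 and 10.1 on soft against 13.2 and 11.2 on stiff, so both stiff libraries lay above both soft ones, as at 24.9% of these regions.

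TCF21 and PDX1 were marked at all layers but H3K27ac. TCF21, a transcription factor of mesenchymal organ development (chr6:134210257-134211304), had 47 and 54 p-JUN fragments on soft against 35 and 50 on stiff. PDX1, the master regulator of pancreas formation (chr13:28494796-28495390), had 44 and 29 on soft against 30 and 46 on stiff. Both carried H3K4me3 in 4 of 4 libraries, with 95 and 140 fragments on soft against 160 and 230 on stiff at TCF21, and 69, 73, 81 and 123 at PDX1. The median H3K4me3 peak of these libraries also held more on stiff, with 120 and 141 fragments on soft against 151 and 207 on stiff. The part of library depth in these values was not tested.

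NTNG1, a membrane-anchored netrin (chr1:107681444-107683059), had 127 and 94 p-JUN fragments on soft against 119 and 168 on stiff. Its mean fold of 8.34 was below those of PDE1B (11.1) and LHX6 (8.73). H3K4me3 was weak there, with 21, 23, 20 and 34 fragments. The p-JUN summit of NTNG1 lay outside the H3K27me3 peaks, which together covered 334 of the region's 1616 bp. ALOX5, which encodes 5-lipoxygenase of leukotriene synthesis (chr10:45870087-45870535), had 23 and 24 p-JUN fragments on soft against 21 and 18 on stiff, and no H3K4me3 peak.

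GABBR2, a subunit of the GABA-B receptor (chr9:101469661-101469987), had 36 and 30 p-JUN fragments on soft against 21 and 29 on stiff. At ALOX5 and GABBR2 both soft libraries lay above both stiff ones on fragments, as at 16.2% of the 40433 regions, while on the fold the matrices overlapped at both. DSP, the desmosomal plaque protein desmoplakin of epithelia (chr6:7541596-7542897), had 21 and 23 on soft against 22 and 26 on stiff, with H3K4me3 in 4 of 4 libraries. The p-JUN summit of DSP also lay outside the H3K27me3 peaks, which together covered 736 of the region's 1302 bp. H3K27ac was not called at any of these 8 promoters, and the H3K27me3 fold at them ranged over the 4 libraries from 1.84 at PDX1 to 3.82 at NTNG1.

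**Figure D4:**
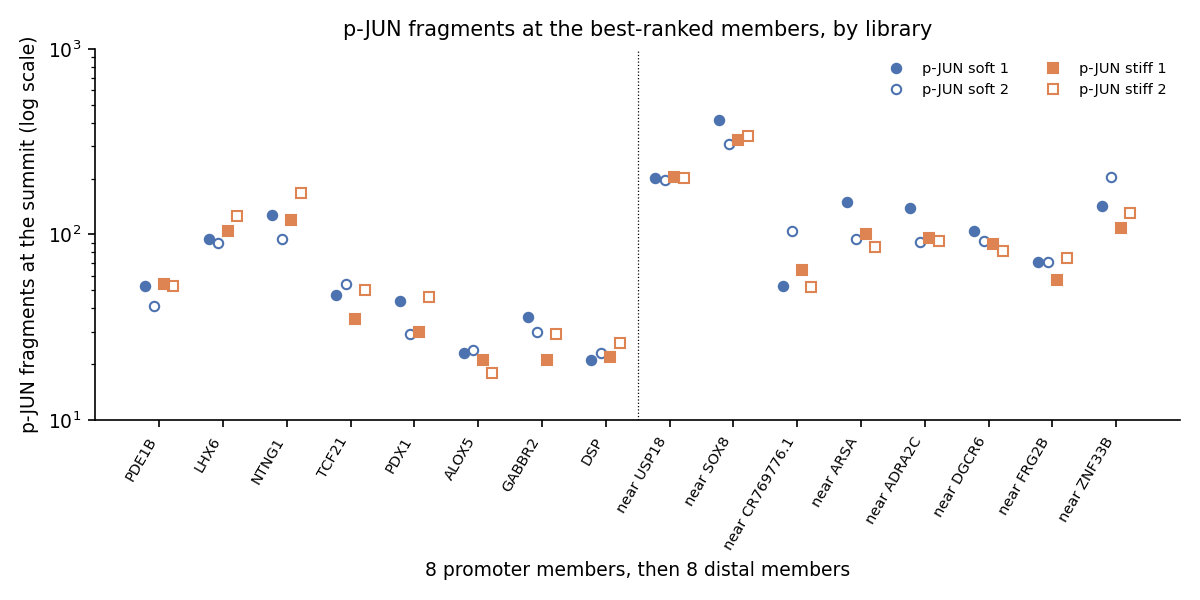
p-JUN fragments at the summit (log scale) in each of the 4 p-JUN libraries for the 8 best-ranked promoter members and, right of the dotted line, the 8 best-ranked distal members, named by the nearest protein-coding start site. Circles are soft and squares stiff, with open symbols for the second replicate; promoters run from 18 to 168 fragments and distal members from 52 to 412, and the matrices overlap at most of them.

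The 8 best-ranked distal members were multi-copy with 1 exception. The first, between genes 85.2 kb from USP18 on chromosome 22 (chr22:18717850-18718243), had 202 and 197 p-JUN fragments on soft against 205 and 201 on stiff. The next, 43.6 kb from SOX8 (chr16:1075245-1075699), had 412 and 307 on soft against 321 and 341 on stiff. In these 2 members 83.8% and 62.8% of the 31-base words were multi-copy, and both carried H3K27ac on both matrices. The exception was chr4:3816536-3817468, 48.6 kb from ADRA2C, with 22.0% of its words multi-copy, no H3K27ac and no H3K4me3, and 138, 91, 96 and 92 p-JUN fragments.

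Satellite units and the telomere repeat marked a small part of the members. The GGAAT unit, 2 in a row, was in 9 members (1.62% against 0.366% of the other regions) and the CENP-B box in 18 (3.24% against 0.0575%), with no AP-1 motif at any of their summits. Of the 18 with the CENP-B box 11 had H3K27ac in a list. The telomere repeat TTAGGG, 2 in a row, was in 8 members (1.44% against 0.0518%), with a median of 997 p-JUN fragments. Of these 8, 7 had H3K4me3 in all 4 libraries and 7 had H3K27ac in both lists. These windows were searched on both strands. The median member peak held 43 and 41 fragments on soft against 39 and 41 on stiff.

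Some single-copy members lay close together. With neighbours up to 1 Mb apart, runs of at least 5 single-copy members were found at 6 places. The other p-JUN regions are far more numerous, and no run was compared with them. The run with most members was on chromosome 5 between 21219454 and 23493162, a span of 2.27 Mb with 12 members around the neuronal cadherin gene CDH12 and PRDM9, the methyltransferase that places meiotic recombination. Of these 12, 6 rest on 1 H3K27me3 list, 9 were in all 4 p-JUN lists, 3 had the AP-1 motif, 1 carried H3K4me3 and 0 carried H3K27ac. Chromosome 5 held 58 members in all, 10.5% of them against 7.12% of the other regions.

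The next largest run, of 9 members within 25.3 kb on the Y chromosome, was at the border of the single-copy class, with 32.6% to 50% of words multi-copy. In all 4 H3K27me3 lists were 8 of these 9, and none had the AP-1 motif or H3K4me3, while 2 had H3K27ac in a list.

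The run on chromosome 5 held members with either order of the matrices. The member 264 kb from PRDM9 (chr5:23178895-23179831) had 100 and 105 fragments on soft against 109 and 120 on stiff. The one in an intron of CDH12 at chr5:22465260-22465830, with the AP-1 motif, had 54 and 52 on soft against 35 and 41 on stiff. Neither passed limma's test on the deposited fold, described below. A run of 8 members on chromosome 13 between 27454804 and 30003189 took in PDX1, RASL11A, FLT1 and MTUS2, with H3K4me3 at 5 and the AP-1 motif at 0. A further run, on chromosome 20 with SULF2 and PREX1 as the nearest genes, had the motif in 3 of 5 and no H3K4me3.

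Genes with a member at a start site were few in every list. Among 19794 protein-coding genes, 10.3% had H3K27me3 within 1 kb of a start site in at least 1 library and 46.7% had a p-JUN summit there in at least 2. In 292 genes both were found within 1 kb of a start site, and in 98 (0.495%) they overlapped as a member. Of 211 developmental transcription factors, 66 (31.3%) had H3K27me3, 53 (25.1%) had p-JUN, 7 had both, and 2 (0.948%) had a member, TCF21 and LHX6. Of 121 signalling ligands, receptors and antagonists, 49 (40.5%) had H3K27me3, 38 (31.4%) had p-JUN, 6 had both, and 2 (1.65%) had a member, WNT10B and WNT7B. The counts in the lists are too small to set against the share over all genes.

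The other lists held 2 genes with a member in all. Of 105 extracellular matrix and matrix remodelling genes, 20 had H3K27me3, 48 had p-JUN and 3 had both, and the 2 with a member were the matrix metalloproteinase MMP28 and SERPINE2, an inhibitor of serine proteases (1.90% of the list). The matrix gene VCAN, which encodes the proteoglycan versican, had a member outside the 1 kb limit, 1513 bp from a start site, and is named after its values were seen. That region (chr5:82768627-82770549) was in all 4 H3K27me3, all 4 p-JUN and all 4 H3K4me3 lists, with 48 and 56 p-JUN fragments on soft against 36 and 59 on stiff. Of 49 AP-1 and stress response genes 40 (81.6%) had p-JUN, 5 had H3K27me3, 3 had both and 0 had a member. None of the 43 contractile and cytoskeletal genes, the 40 Polycomb and histone methylation genes, the 53 clustered protocadherins or the 14 stellate cell and myofibroblast markers had one, where 29, 28, 2 and 10 of them had p-JUN. At the share over all genes lists of this size would hold few or no members.

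The 4 list genes outside the developmental factors varied in support. WNT10B, a ligand of the Wnt pathway (chr12:49366118-49366720), was in all 4 H3K27me3 lists, with 65 and 58 p-JUN fragments on soft against 50 and 64 on stiff, the AP-1 motif and no H3K4me3 peak. WNT7B, another Wnt ligand (chr22:46373876-46374346), was called for p-JUN in the first soft and the second stiff library only, with 41 fragments in each. MMP28 was overlapped by H3K27me3 in 1 stiff library and SERPINE2 in 1 soft library, so both rest on a single H3K27me3 list.

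Other promoter members are named after their values were seen and stand for no list. FLT1, a receptor of vascular endothelial growth factor (chr13:29068018-29069931), was in all 4 H3K27me3, all 4 p-JUN and all 4 H3K4me3 lists, with 253 and 212 p-JUN fragments on soft against 154 and 200 on stiff. CYP24A1, which inactivates vitamin D, was in the same 12 lists with 65 and 62 p-JUN fragments on soft against 65 and 76 on stiff. CYP27B1, which activates vitamin D, had 2 member regions in 1 H3K27me3 list each. ALDH1A2, which makes retinoic acid, the estrogen receptor gene ESR2 and the smooth muscle coactivator MYOCD were each overlapped in the first soft H3K27me3 library only.

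The p-JUN calls in each library chose the members, so their number per matrix is a description. p-JUN was called at 507 and 464 members on soft against 445 and 494 on stiff, a log2 ratio of the means of −0.05, and the soft libraries and those labelled stiff overlapped. In all 4 p-JUN lists were 360 members, in 3 lists 80 and in 2 lists 115. Soft-only members, called in both soft libraries and neither stiff one, numbered 31 (5.59%), where 2.02% of all regions in at least 2 p-JUN lists were soft-only. Stiff-only members numbered 17 (3.06%), where 3.21% of all such regions were stiff-only.

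The best-supported stiff-only members were a region 17.9 kb from an assembly gap on the Y chromosome, the promoter of FOXB2, a forkhead factor of neural development, and a multi-copy exon near the end of chromosome 9. FOXB2 (chr9:79633738-79634122) had 23 and 26 p-JUN fragments in the stiff libraries and carried H3K4me3 in 4 of 4 libraries. The best-supported soft-only members were LINC00621 on chromosome 13, an intron of the glycosyltransferase gene B4GALNT3, and the promoter of GRP, the gastrin-releasing peptide (chr18:56888113-56888647), with 22 and 25 fragments in the soft libraries. These counts were low, and no call in a library does not show that p-JUN was absent there.

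The height of p-JUN at members did not pass the test between matrices. In limma's fit on the log2 of the deposited fold across 40433 regions in all 4 p-JUN lists, 0 regions (0%) passed an adjusted p of 0.05, so 0 of the 360 members did. The lowest adjusted p of a member was 0.163, and 32 members (8.89%) had an unadjusted p under 0.05, against 9.33% of all regions. The median log2 difference of stiff minus soft was −0.01 in members and −0.01 in the rest, and 90% of members lay between −0.28 and 0.32.

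The count of fragments at the summit, which is not divided by the local background, gave other calls. On that scale limma called 8 of the 360 members higher on stiff (background 6.15% of 40433 regions) and 38 lower (background 7.38%). The median log2 difference was −0.15 in members and −0.05 in the rest. Multi-copy members made up 22 of these 46 calls, of which 21 were lower on stiff. Of the 7 tested members with the telomere repeat 7 were called, all lower. Without it 15 of 97 multi-copy members were called, 14 of them lower. Of 255 single-copy members 23 were called, 16 of them lower. The region in an intron of GATA6, a transcription factor of endoderm and heart, was among the 8 higher ones and is named after its values were seen, with 56 and 43 fragments on soft against 79 and 83 on stiff. The FLT1 promoter described above was among the 38 lower ones, with a log2 difference of −0.46.

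For H3K4me3, 124 of 16098 regions in all 4 lists overlapped a member. limma called 0 regions (0%) on the deposited fold, and 17 of the 124 (13.7%) had an unadjusted p under 0.05, against 9.98% of all regions. On fragments it called 3 of the 124 higher on stiff (background 2.25%) and 9 lower (background 2.14%).

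**Figure D5:**
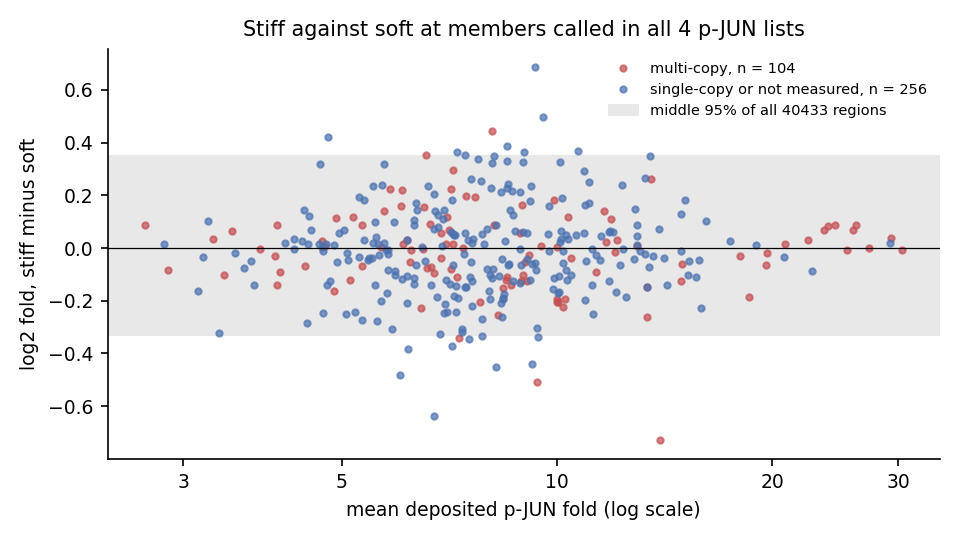
Difference of the log2 deposited p-JUN fold, stiff minus soft, against the mean fold (log scale) for the 360 members called in all 4 p-JUN lists (red multi-copy, blue the others). The grey band is the middle 95% of all 40433 regions, from −0.33 to 0.35; 24 members lie outside it, and limma called none of them.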

How the data were processed

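Peak lists from 14 CUT&Tag samples of LX-2 cells were analysed, grouped by the treatment label. Per the labels and the study's methods, the authors used Trim Galore for trimming, Bowtie2 for alignment to hg19, Picard for duplicates and MACS2 for peaks. The methods name a relaxed q threshold of 0.05 for MACS2 in the study's ATAC-seq, while version, settings and control for CUT&Tag are not given in the sources used here. Each deposited peak has a fold (the ratio of its signal to the background around it), a −log10 p, a −log10 q and a score. Broad H3K27me3 peaks hold averages. Read totals were not analysed here.

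The fold and −log10 p that the authors deposited fix the fragments at a summit if p is a Poisson tail. Within a relative error of 1e-04 they came out whole for 100% of p-JUN peaks, and for no less than 99.95% (H3K4me3) and 99.49% (H3K27ac) of the others. The median p-JUN summit held 60 to 64 fragments. Peaks on 24 chromosomes were used. Copy number came from 31-base words taken every 10 bp, and gaps were runs of unknown bases of at least 10 kb. Genes came from GRCh37 and GENCODE release 44 mapped to it. 0 peaks ran past a chromosome's end.

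Shares per library were compared by exact sign-flip or permutation tests over libraries. Heights were compared with limma 3.58.1 (lmFit and eBayes with a trend) on log2 values centred on each library's median, with Benjamini-Hochberg adjustment over all regions. The steps were tested on simulated data. Wilson and exact binomial intervals (95%) cover counting error only.

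Named regions were ranked by the number of H3K27me3 lists, the number of p-JUN lists and the mean fold: the first 8 at promoters, the first 8 elsewhere, 3 stiff-only, 3 soft-only, 2 at each side of the rule's edge, and list genes with a member at a start site. The members and gene lists were chosen with earlier results of these data known.

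Alternatives were stricter H3K27me3 or p-JUN peaks, lists of equal length, a summit inside the H3K27me3 peak, kept regions of all 14 lists, all 4 p-JUN lists, a wider motif window or promoter, the CRE motif, fragments in place of fold, the replicate block, and each library left out. Restriction to single-copy regions and to regions 1 Mb from a gap was added after seeing the data. Analyses used python, numpy, pandas, scipy, numba and matplotlib.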

Additional observations from a re-analysis of the deposited data

How the results depend on the processing

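Across these settings the lower AP-1 share, the lower p-JUN fold, the lower H3K27ac share and the higher H3K4me3 share of members kept their direction, but some sizes moved by over 1.5 times. The H3K4me3 difference went from 4.92 to 8.76 points with at least 2 H3K27me3 lists and to 7.45 in regions 1 Mb from a gap, and the p-JUN fold difference from −0.227 to −0.140 with p-JUN peaks of −log10 q of at least 10. The H3K4me3 excess of stiff over soft, 2.25 points, ranged from 1.17 (without the second H3K4me3 stiff library) to 4.06 (without the first H3K27me3 soft library) with each library left out, and was 4.59 with at least 2 H3K27me3 lists, 3.47 with all 4 p-JUN lists and 1.25 in single-copy regions. The mean H3K27ac difference was −15.6 points and became −12.6 with H3K27me3 peaks of −log10 q of at least 2, −10.9 with at least 2 H3K27me3 lists, −12.9 with lists of equal length, −21.0 in single-copy regions and −21.2 in regions 1 Mb from a gap. Members numbered 327 with at least 2 H3K27me3 lists and 360 with all 4 p-JUN lists, and 394 to 539 with each library left out. The log2 ratio of p-JUN calls ranged from −0.12 to 0.043 with each library left out, turning without the first p-JUN soft library. The promoter difference ranged from −2.40 to 0.31 points, turning without the second H3K27me3 soft library, and was 4.16 points in single-copy regions and 5.33 points in regions 1 Mb from a gap. Members with a p-JUN height called different numbered 0 to 1 with each library left out (1 without the second p-JUN soft library), 46 on fragments, and 1 with the replicate block, a multi-copy region near FAM230A, while H3K4me3 gave 0 with the block and 12 on fragments. With the block limma called 27 of all 40433 p-JUN regions higher on stiff and 14 lower. The calls over all regions with a library left out are not given here. Same-numbered libraries did not deviate together (correlation across regions 0.005 for p-JUN and −0.05 for H3K4me3), so the numbers were not taken to pair them, and with the replicate block the log2 ratio of p-JUN calls was −0.05. The causes of these shifts were not tested.

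The H3K27me3 lists limit the members: depth of these libraries is unknown, peaks were short, and 228 members rest on 1 list. With 4 libraries no exact test reached 0.05. A peak that was not called is not evidence that a mark was absent, and most p-JUN peaks of members held few fragments.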
